A study of Mus musculus with 4 samples.

Results

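Killer cell lectin-like receptors were examined in regulatory T cells sorted by whether they carried Nrp1 (neuropilin-1). They are type II membrane proteins with a C-type lectin-like domain, first known from natural killer (NK) cells and also found on subsets of T cells. Some inhibit the cell through phosphatases such as SHP-1, others activate it through adaptors such as DAP10 and DAP12, and most see MHC class I-like molecules, cadherins or Clec2 proteins on other cells. On regulatory T cells, Klrg1 is known as a mark of a differentiated effector subset. The members were taken as every probe set annotated to one of 7 named genes alone, which gave 8 probe sets of 6 genes, out of 45037 probe sets and 18193 genes with a probe set of their own on the array. Klrg1, Klrd1, Klrk1 and Klre1 had 1 probe set each, and Klrb1f and Klrc1 had 2 each. Klrb1c, which encodes the NK1.1 antigen of C57BL/6 mice, had only a probe set shared with Klrb1b.

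Spleen cells that were CD4+ and Foxp3+ came from Balb/c Foxp3 GFP mice, in which a green fluorescent protein reports Foxp3, the defining transcription factor of regulatory T cells. The 2 Nrp1-positive and the 2 Nrp1-negative samples were hybridised to 1 array each. Mice were 4 to 6 weeks old, or 4 to 8 weeks for Nrp1-negative replicate 1. That array has a title that reads negative, and a source name and cell type that read positive. The title was followed here, and results that turn on the choice are given both ways. The labels do not say whether a group's samples were sorted from different mice, so p-values measure only the spread between these arrays. The sample number also marks a batch in the files: the deposited trimmed mean was 500.003 on both arrays numbered 1 and 150.001 on both numbered 2. Values were brought to one trimmed mean, called scaled intensity, and each comparison is given within each replicate number.

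The sorted marker followed the titles. At probe set 1448943_at, Nrp1 had scaled intensities of 9344 and 7745 in Nrp1-positive replicates 1 and 2, against 339 and 1223 in Nrp1-negative replicates 1 and 2. Nrp1-negative replicate 1, the array whose labels disagree, had the lowest of the 4 values at every Nrp1 probe set. Its Nrp1 level thus goes with its title, and fits that move it into the Nrp1-positive group go against that level. Of 10 regulatory T cell markers, 9 were above background on all 4 arrays. The exception was the Foxp3 probe set, with 2.16 and 19.9 in Nrp1-positive and 4.45 and 36.4 in Nrp1-negative cells, below background on every array. Background is the 95th percentile, on each array, of 126 probe sets for olfactory, vomeronasal and taste receptor and keratin-associated genes. It lay at 62.0 and 55.1 on the Nrp1-positive and 67.4 and 54.6 on the Nrp1-negative arrays.

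All 7 genes lie on mouse chromosome 6 (RefSeq, GRCm38.p6). The 6 other than Klrg1 lie within 904368 bases of one another in the natural killer gene complex, from Klrb1c (chr6:128778485-128788641) to Klrc1 (chr6:129666015-129682852). Klrb1f lies between them at chr6:129045837-129059724, and Klrg1 lies apart at chr6:122270596-122282833, 6495652 bases before the nearest of them. Promoter windows, from 250 bases before to 50 after a start site, were found in the RefSeq table for 5 of the 7 genes. Those of Klrb1f and Klrb1c are shown because 1 Klrb1f probe set stood above background and the probe set that covers Klrb1c, shared with Klrb1b, stood below it. The Klrb1f window is chr6:129045651-129045950 on the plus strand and the Klrb1c window chr6:128788592-128788891 on the minus strand, both read 5′ to 3′. Capitals mark the longest run of bases that both share, of 13 bases.
Klrb1f: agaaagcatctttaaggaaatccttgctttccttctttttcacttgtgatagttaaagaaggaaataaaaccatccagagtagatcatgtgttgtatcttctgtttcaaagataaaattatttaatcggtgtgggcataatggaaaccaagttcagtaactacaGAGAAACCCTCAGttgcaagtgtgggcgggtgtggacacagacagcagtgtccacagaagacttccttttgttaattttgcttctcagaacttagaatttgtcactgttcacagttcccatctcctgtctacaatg
Klrb1c: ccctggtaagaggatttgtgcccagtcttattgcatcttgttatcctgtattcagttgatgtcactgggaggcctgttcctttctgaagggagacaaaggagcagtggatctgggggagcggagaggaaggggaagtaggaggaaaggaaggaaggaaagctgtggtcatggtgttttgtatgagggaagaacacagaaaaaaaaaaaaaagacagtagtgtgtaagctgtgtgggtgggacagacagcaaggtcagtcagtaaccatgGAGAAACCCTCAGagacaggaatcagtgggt
The run begins at base 165 of the Klrb1f window, before the start site, and at base 270 of the Klrb1c window, after it. It occurs, on either strand, in 5 of 32851 promoter windows, and these belong to Klrb1a, Klrb1b, Klrb1c and Klrb1f. The core letters of Runx factors, TGTGGT, searched on both strands, were in the windows of Klrb1c, Klrk1 and Klrc1 and in 1 of 2 windows of Klre1, and not in that of Klrb1f. They were in 16.8% of all windows.

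The receptor genes above background on all 4 arrays were Klrg1, Klrb1f at 1 of its 2 probe sets, and Klrd1. Klrg1 had a higher mean in Nrp1-positive cells and Klrb1f a lower one, in the same direction in both replicate numbers, while Klrd1 differed in opposite directions. No probe set of the array passed the test without the batch, and neither Klrg1 nor Klrb1f passed with it. Klrc1 and Klre1 were below background on all arrays, Klrk1 passed it on 1 array and the second Klrb1f probe set on 2 of 4.

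**Figure D1:**
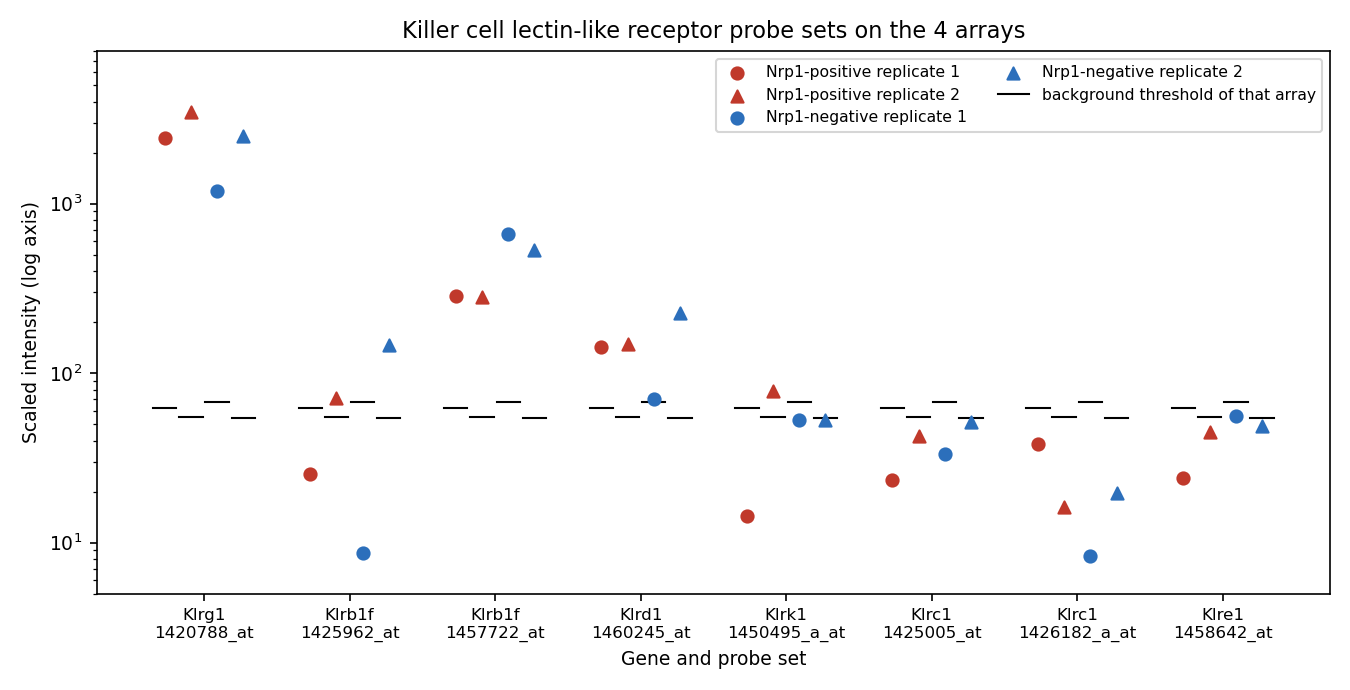
Scaled intensity (vertical log axis) of the 8 receptor probe sets on each of the 4 arrays, with the background threshold of each array as a short black line. Klrg1, Klrb1f 1457722_at and Klrd1 lie above their thresholds on all 4 arrays, Klrd1 only just in Nrp1-negative replicate 1 (70.7 against 67.4), and the others lie mostly below.

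Klrg1 encodes an inhibitory receptor for E-, N- and R-cadherin that carries an immunoreceptor tyrosine-based inhibitory motif. At its probe set, 1420788_at, it had scaled intensities of 2439 and 3497 in Nrp1-positive replicates 1 and 2, against 1192 and 2526 in Nrp1-negative replicates 1 and 2. The positive array was the higher one at each replicate number, but the groups overlapped, since Nrp1-negative replicate 2 exceeded Nrp1-positive replicate 1. Nrp1-positive cells averaged 2968 ± 748 and Nrp1-negative cells 1859 ± 943 (SD, n = 2 each), and the gap between the means exceeded either SD while the arrays of the groups overlapped. The log2 difference, taken as Nrp1-positive minus Nrp1-negative, was 1.02 in replicate 1 and 0.47 in replicate 2, with a mean of 0.74. Of 22519 probe sets tested, 2.05% were higher in both replicates by at least the smaller of these differences.

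Klrg1 also differed between the batches. Replicate 2 exceeded replicate 1 by 0.52 (log2) among Nrp1-positive and by 1.07 among Nrp1-negative arrays. The 3′ to 5′ ratio of a control, a sign of RNA quality, and the level of the bacterial controls followed the same batches. The ratio of the 3′ to the 5′ Gapdh control probe set was 1.54 and 0.711 on Nrp1-positive replicates 1 and 2, against 1.75 and 0.763 on Nrp1-negative replicates 1 and 2. The median deposited intensity of 27 bacterial control probe sets was 2277 and 1.65 on Nrp1-positive and 2723 and 1.65 on Nrp1-negative arrays, in the same order, and the part of these in the Klrg1 values was not tested. The lowest of the 4 Klrg1 values was in Nrp1-negative replicate 1, the array whose labels disagree. Without that array the log2 difference was 0.21, and without Nrp1-negative replicate 2 it was 1.28. Such fits leave 1 batch in a group, so the batch enters the difference. When Nrp1-negative replicate 1 was moved into the Nrp1-positive group, against its Nrp1 level, the difference was −0.22. In bulk samples, fewer cells that express a gene and less of its RNA per cell cannot be told apart.

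Klrb1f encodes a member of the NKR-P1 family that binds the Clec2 protein Clr-g. At probe set 1457722_at it had scaled intensities of 284.5 and 280.5 in Nrp1-positive replicates 1 and 2, against 658.8 and 530.3 in Nrp1-negative replicates 1 and 2. The groups did not overlap, which was also so, in this direction, for 8.50% of all probe sets tested. Nrp1-positive cells averaged 282.5 ± 2.86 and Nrp1-negative cells 594.5 ± 90.9 (SD, n = 2 each), and the gap between them exceeded the spread of either group's arrays. The log2 difference was −1.16 in replicate 1 and −0.88 in replicate 2, with a mean of −1.02 on the log2 scale of intensity plus a constant, or 0.494 of the Nrp1-negative level. Of all probe sets tested, 0.187% were lower in both replicates by at least the smaller of these differences. Between the batches this probe set moved by −0.02 on the Nrp1-positive arrays and by −0.30 on the Nrp1-negative arrays (log2). With 1 array left out in turn, the difference ranged from −1.17 to −0.87, and it was −0.48 when Nrp1-negative replicate 1 was moved into the Nrp1-positive group.

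The other Klrb1f probe set, 1425962_at, was lower in Nrp1-positive cells in replicate 2 alone. It had 25.4 and 71.0 in Nrp1-positive replicates 1 and 2, against 8.66 and 146.5 in Nrp1-negative replicates 1 and 2. It passed background on the arrays numbered 2 and on neither array numbered 1. Its log2 difference was 0.70 in replicate 1, between values within background, and −0.88 in replicate 2, between values above it. A lower level of Klrb1f in Nrp1-positive cells in both replicates thus rests on 1 of its 2 probe sets. Replicate 1 cannot be read at the other. Which parts of the transcript the probes cover is not analysed here.

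Klrd1 encodes CD94, which pairs with NKG2 chains such as the product of Klrc1 to form a receptor for the MHC class I-like molecule Qa-1. At probe set 1460245_at it had 142.7 and 148.3 in Nrp1-positive replicates 1 and 2, against 70.7 and 225.9 in Nrp1-negative replicates 1 and 2. The Nrp1-positive arrays were close to each other and lay between the Nrp1-negative ones. The log2 difference was 0.86 in replicate 1 and −0.55 in replicate 2, with a mean of 0.15. Between the batches, Klrd1 moved by 0.05 on the Nrp1-positive arrays and by 1.46 on the Nrp1-negative arrays (log2). The sign of its difference turned with Nrp1-negative replicate 1, being −0.58 without that array and −0.87 with it in the Nrp1-positive group.

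**Figure D2:**
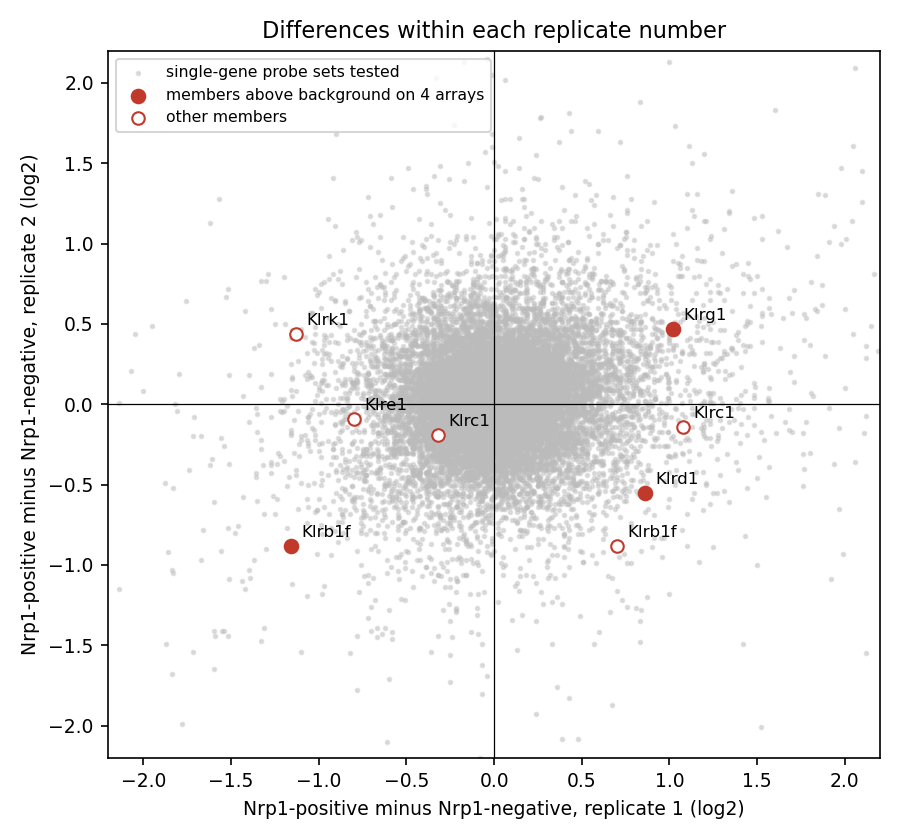
Log2 differences, Nrp1-positive minus Nrp1-negative, in replicate 1 (horizontal) and replicate 2 (vertical), for the 8 receptor probe sets (red, filled where above background on all 4 arrays) and 18835 tested probe sets with 1 gene (grey, of which 38 lie outside the axes). Klrg1 lies in the upper right quadrant, Klrb1f 1457722_at in the lower left, and Klrd1 and the second Klrb1f probe set in the lower right.

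Chains that pair with CD94 or signal through DAP10 were mostly below background. Klrc1, which encodes the inhibitory chain NKG2A, was below background on all arrays at both probe sets. At 1425005_at it had 23.3 and 42.8 in Nrp1-positive replicates 1 and 2, against 33.5 and 51.3 in Nrp1-negative replicates 1 and 2. At 1426182_a_at it had 38.1 and 16.1 in Nrp1-positive and 8.35 and 19.7 in Nrp1-negative cells. Klrk1 encodes NKG2D, an activating receptor for stress-induced ligands. At 1450495_a_at it had 14.4 and 78.2 in Nrp1-positive replicates 1 and 2, against 53.1 and 53.0 in Nrp1-negative replicates 1 and 2, and it passed background on Nrp1-positive replicate 2 alone.

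Klre1, whose product pairs with Klri proteins in mouse NK cells, stayed below background. At 1458642_at it had 24.2 and 45.1 in Nrp1-positive replicates 1 and 2, against 55.9 and 49.1 in Nrp1-negative replicates 1 and 2. The groups did not overlap there, but the values are within background, so their order is not read. The share of such probe sets was counted only among those tested, which leaves Klre1 out. The probe set shared by Klrb1b and Klrb1c had 10.2 and 8.42 in Nrp1-positive and 8.96 and 8.81 in Nrp1-negative cells, also below background. Natural killer gene complex genes vary between mouse strains, and the strain behind the probe sequences was not looked up, so a low value in Balb/c cells is no proof that a gene is silent.

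The groups were compared with limma across 22519 probe sets at or above the median mean level, of which 3 were members: Klrg1 1420788_at, Klrb1f 1457722_at and Klrd1 1460245_at. The 5 other member probe sets fell below that level and were not tested. Without the batch, limma called 0 probe sets in either direction at an adjusted p below 0.05 (0.00%), so also 0 members, while 233 had an unadjusted p below that value. With the replicate number as a block, limma called 29 probe sets (0.129%) higher and 18 (0.0799%) lower in Nrp1-positive cells, or 0.209% in both directions together, and again 0 members. For Klrg1, limma gave an adjusted p = 1.00 without the block (standard error 0.40) and an adjusted p = 0.106 with it (standard error 0.15). For Klrb1f, limma gave an adjusted p = 1.00 without the block (standard error 0.26) and an adjusted p = 0.106 with it (standard error 0.20). Klrd1 had a limma adjusted p = 0.987 with the block and a standard error of 0.37. An exact permutation test of 2 arrays against 2 cannot give a two-sided p below 0.333.

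The calls of Klrg1 and Klrb1f depended on the normalization. After quantile normalization with the block, limma gave Klrg1 a difference of 0.76 with an adjusted p = 0.0223 and Klrb1f one of −1.05 with an adjusted p = 0.0269. Of 22519 probe sets tested there, 79 were called higher and 54 lower. With the block and 1 probe set per gene, limma gave Klrb1f an adjusted p = 0.0451 and Klrg1 one of 0.0530. Of 10204 probe sets tested there, 36 were called higher and 24 lower. With the block but no mean-variance trend, the adjusted p in limma was 0.711 for both. Across the fits with the block and all 4 arrays, those with the larger pseudocount included, Klrg1 differed by 0.72 to 0.76 and Klrb1f by −1.05 to −0.90.

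**Figure D3:**
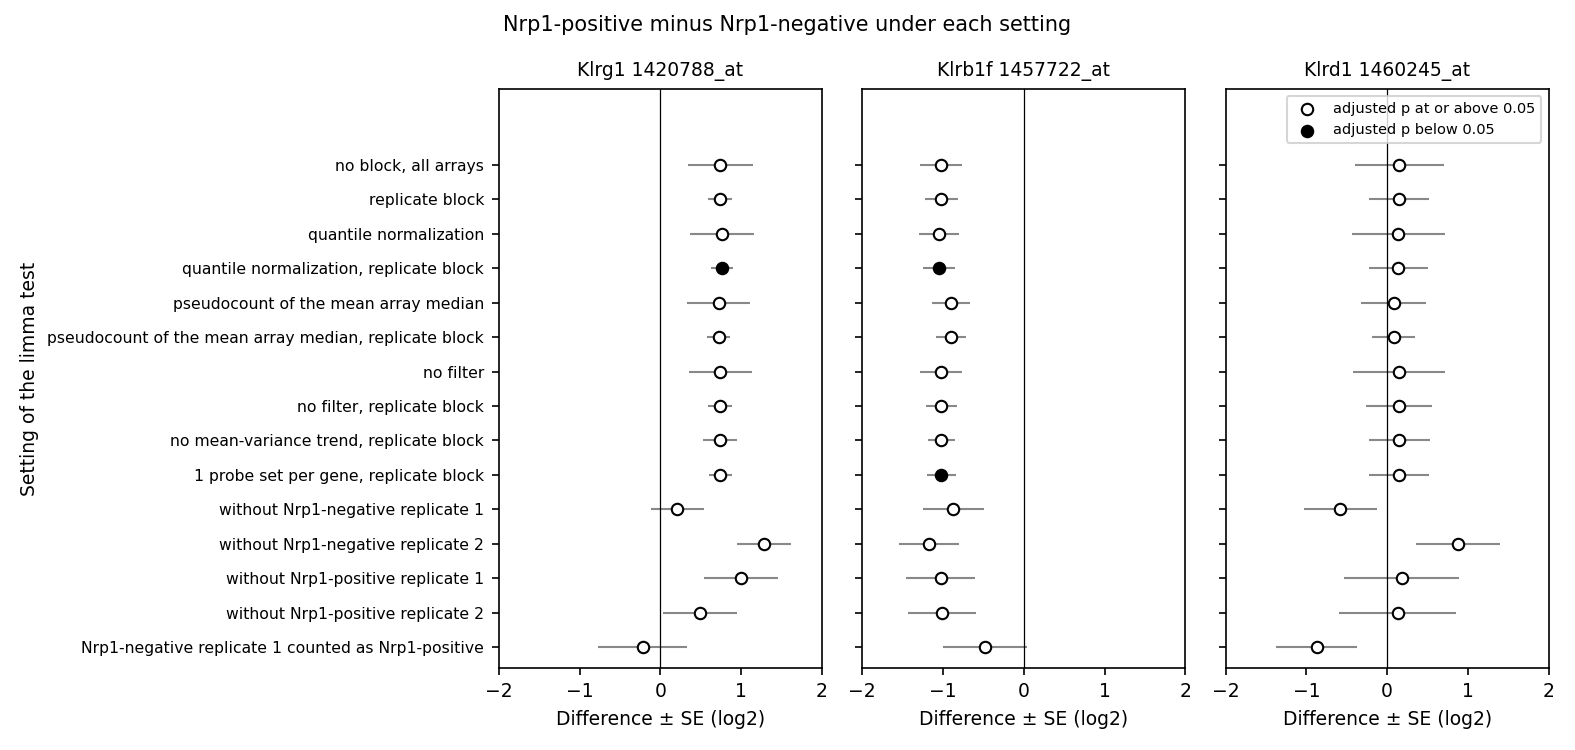
Difference in log2 intensity, Nrp1-positive minus Nrp1-negative, with its limma standard error (bars) for the 3 tested receptor probe sets, under each setting of the test (rows), filled where the adjusted p was below 0.05. Klrb1f stays below 0 in every row, Klrg1 is at −0.22 in the bottom row, which moves Nrp1-negative replicate 1 to the other group, and Klrd1 lies on both sides of 0.

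Of the wider receptor family, 22 further genes were listed, and 11 had a probe set of their own. Klra17, which encodes the inhibitory receptor Ly49Q known from plasmacytoid dendritic and myeloid cells, was above background on all 4 arrays, and 9 of the 11 were below it on all. Klra17 had 88.2 and 358.2 in Nrp1-positive replicates 1 and 2, against 88.1 and 454.9 in Nrp1-negative replicates 1 and 2. It was higher on both arrays numbered 2 and nearly equal between the groups within replicate 1. Klra2 was above background on both arrays numbered 2, with 32.8 and 72.4 in Nrp1-positive and 4.27 and 135.1 in Nrp1-negative cells. Of 1 gene tested in this list, 0 were called by limma with the block.

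Signalling partners of these receptors were read on the same arrays. Of 11 adaptor and signalling genes with a probe set of their own, all were above background on all 4 arrays, and 0 were called higher or lower by limma with or without the block. Their median difference was −0.01, against 0.01 over all probe sets tested. From replicate 1 to 2, Tyrobp, which encodes DAP12, moved by 2.15 on Nrp1-positive and 2.85 on Nrp1-negative arrays (log2). Fcer1g, an adaptor named outside the rule for listed genes, moved by 2.30 and 2.57 in the same order. Which cells gave these values was not tested. Hcst, which encodes DAP10, the adaptor of NKG2D, had 2494 and 2372 in Nrp1-positive replicates 1 and 2, against 3307 and 2702 in Nrp1-negative replicates 1 and 2, with an adjusted p = 0.633 in limma with the block. Ptpn6, which encodes the phosphatase SHP-1, had 3175 and 4039 in Nrp1-positive and 3020 and 3257 in Nrp1-negative cells. Pik3r1, a regulatory subunit of phosphoinositide 3-kinase, had 6293 and 3486 in Nrp1-positive and 4015 and 2938 in Nrp1-negative cells, and Zap70, a kinase of T cell receptor signalling, 3024 and 2155 in Nrp1-positive and 2218 and 3396 in Nrp1-negative cells.

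Of 10 ligand genes with a probe set of their own, Clec2d and Clec2i were above background on all 4 arrays, 5 were below it on all, and 0 of 2 tested were called by limma with the block. Clec2i, which encodes the Klrb1f ligand Clr-g, had 1298 and 1306 in Nrp1-positive replicates 1 and 2, against 815.4 and 1152 in Nrp1-negative replicates 1 and 2. Its groups did not overlap, which was so, in this direction, for 11.5% of all probe sets tested. Its log2 difference was 0.66 in replicate 1 and 0.18 in replicate 2, with an adjusted p = 0.560 in limma with the block. Clec2d, which encodes the ligand Clr-b of the inhibitory receptor NKR-P1B, had 21596 and 4998 in Nrp1-positive and 26001 and 4242 in Nrp1-negative cells, a gap between batches with no common direction between groups. Cdh1, which encodes the Klrg1 ligand E-cadherin, had 15.1 and 84.2 in Nrp1-positive and 62.2 and 72.7 in Nrp1-negative cells, above background on the arrays numbered 2 alone. Clec2h had 46.1 and 44.7 in Nrp1-positive and 89.0 and 51.3 in Nrp1-negative cells.

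Markers of cells that carry these receptors outside the regulatory T cell pool were also read. Of 13 NK cell markers, 10 were above background on all 4 arrays, and Itga2, Klra7 and Klra8 were below it on all. Ncr1, a defining NK cell receptor, and Prf1, Nkg7, Fcgr3, Cd160 and Eomes are named outside the rule for listed genes, after their values were seen. Ncr1 had 74.3 and 77.0 in Nrp1-positive replicates 1 and 2, against 104.0 and 141.1 in Nrp1-negative replicates 1 and 2. Prf1 had 220.9 and 164.8 in Nrp1-positive and 244.9 and 227.6 in Nrp1-negative cells. The groups did not overlap for either gene, which was so, in this direction, for 8.50% of all probe sets tested. For the other NK markers tested they overlapped. Gzma, Gzmb, Ccl5 and Tyrobp, which T cells or myeloid cells can also express, were higher on the array numbered 2 in either group. Gzma had 544.2 and 781.9 in Nrp1-positive and 552.5 and 1510 in Nrp1-negative cells, and Ccl5 517.9 and 1100 in Nrp1-positive and 506.7 and 1927 in Nrp1-negative cells. Gzmb had 438.9 and 1291 in Nrp1-positive and 531.0 and 1619 in Nrp1-negative cells. Tyrobp, which encodes DAP12, had 503.5 and 2292 in Nrp1-positive and 420.3 and 3146 in Nrp1-negative cells. Nkg7, which encodes a cytotoxic granule protein, was also higher on the array numbered 2 in either group, with 564.6 and 820.4 in Nrp1-positive and 191.1 and 797.8 in Nrp1-negative cells. Its log2 difference was 1.48 in replicate 1 and 0.04 in replicate 2, with an adjusted p = 0.585 in limma with the block. Fcgr3, Cd160 and Eomes had mean log2 differences of 0.07, 0.06 and −0.11. The summed intensity of the NK list was 3559 and 8170 in Nrp1-positive and 3229 and 11019 in Nrp1-negative cells. Of 10 NK markers tested, 0 were called by limma with the block, with a median difference of −0.06 in replicate 1 and −0.38 in replicate 2.

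Myeloid markers showed the same order of batches. Of 7 with a probe set of their own, 4 were above background on all 4 arrays and 0 were called by limma with the block. Their summed intensity was 2392 and 10598 in Nrp1-positive replicates 1 and 2, against 1641 and 11618 in Nrp1-negative replicates 1 and 2. Lyz2, which encodes lysozyme, made up most of it, at 1602 and 8504 in Nrp1-positive and 1088 and 8992 in Nrp1-negative cells. Of 5 B cell markers, Cd79b was the one above background on all arrays, with 277.0 and 392.5 in Nrp1-positive and 178.7 and 280.9 in Nrp1-negative cells. Blk passed background on the Nrp1-positive arrays alone, with 86.6 and 65.8, against 7.83 and 44.5 in Nrp1-negative cells. Cd79a had 62.2 and 17.35 in Nrp1-positive and 75.7 and 65.3 in Nrp1-negative cells. Ms4a1 had 32.3 and 73.2 in Nrp1-positive and 50.1 and 89.5 in Nrp1-negative cells. The B cell list summed to 507.1 and 556.5 in Nrp1-positive and 322.1 and 489.3 in Nrp1-negative cells. Of 2 CD8 T cell markers, Cd8b1 was above background on all arrays, at 266.1 and 489.9 in Nrp1-positive and 230.7 and 411.4 in Nrp1-negative cells. Cd8a passed background on the Nrp1-positive arrays alone, with 84.4 and 72.3, against 40.2 and 19.4 in Nrp1-negative cells. The CD8 list summed to 350.5 and 562.2 in Nrp1-positive and 270.9 and 430.8 in Nrp1-negative cells. Among 3 genes listed for NKT and gamma-delta T cells, Zbtb16, a defining factor of NKT cells, had 63.8 and 37.0 in Nrp1-positive and 44.3 and 85.5 in Nrp1-negative cells. That list summed to 3060 and 2847 in Nrp1-positive and 1837 and 2742 in Nrp1-negative cells. Nearly all of it was Cd1d1, which is not particular to these cells, so the sum is no measure of them. Klrd1 in Nrp1-negative cells and Klrg1 in both groups were higher in replicate 2, as were the NK and myeloid sums. The NK list did not move as one. T cells or myeloid cells can also express several of its genes, so its sum is no measure of NK cells. From replicate 1 to 2, Tyrobp moved by 2.15 on Nrp1-positive and 2.85 on Nrp1-negative arrays (log2). Ncr1 moved by 0.04 and 0.38, and Prf1 by −0.39 and −0.10, in the same order. Klrb1f 1457722_at was not higher in replicate 2 in either group. Its groups did not overlap, which was so for Ncr1 and Prf1 but for no other NK marker tested. The part of other cells in the receptor values, those of Klrb1f included, was not tested.

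**Figure D4:**
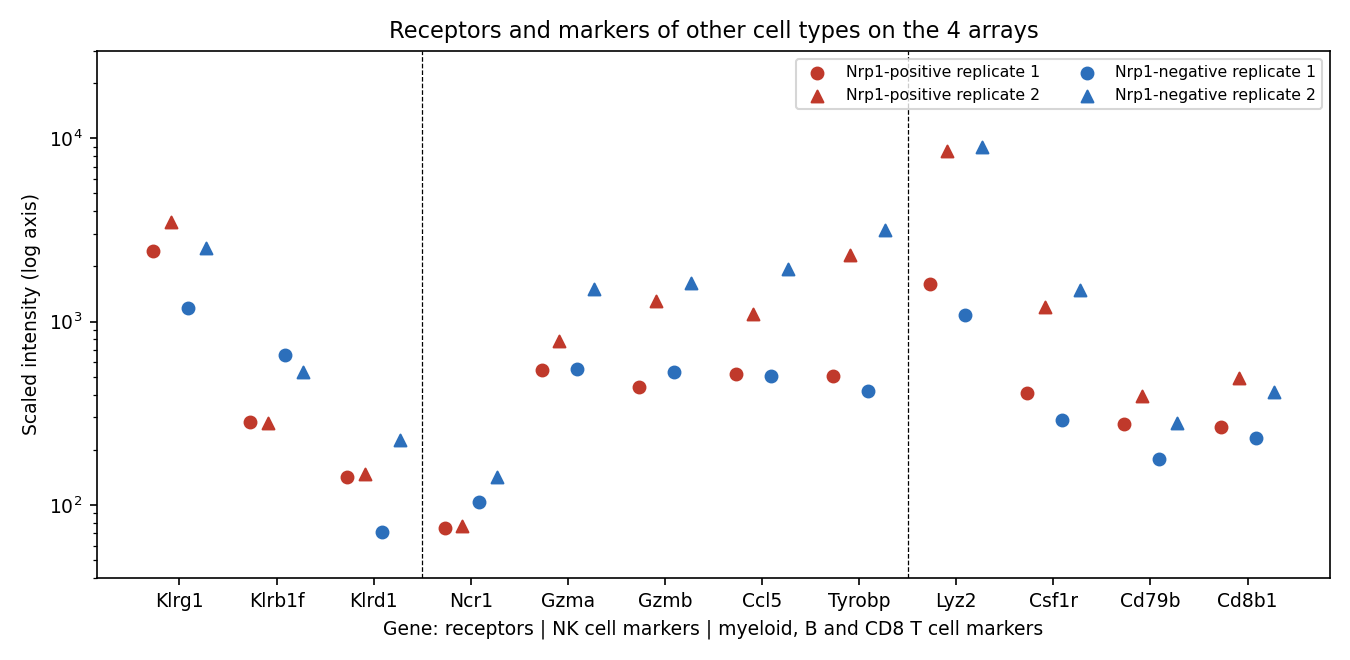
Scaled intensity (vertical log axis) of the 3 receptor genes above background and of markers of NK, myeloid, B and CD8 T cells on the 4 arrays, with circles for replicate 1 and triangles for replicate 2. Gzma, Ccl5, Tyrobp and Lyz2 are higher on both arrays numbered 2, Tyrobp for instance at 2292 and 3146 there. Klrb1f is lower on both Nrp1-positive arrays than on either Nrp1-negative array. So is the NK cell marker Ncr1, while the groups overlap for Gzma, Gzmb, Ccl5 and Tyrobp.

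The genes whose pattern over the 4 arrays was nearest to that of Klrg1 were Il18rap, Slc36a4 and Gnb4, of 17418 probe sets above background, by the root mean square distance of centred log2 values. The distances were 0.0463 for Il18rap, 0.0532 for Slc36a4 and 0.0669 for Gnb4. Il18rap, the accessory chain of the interleukin-18 receptor, had 354.3 and 545.6 in Nrp1-positive replicates 1 and 2, against 163.5 and 355.9 in Nrp1-negative replicates 1 and 2. The nearest to Klrb1f 1457722_at were Jpt1 at 0.0885, Ctsl at 0.0953 and Tmem161a at 0.0978. Ctsl, which encodes the lysosomal protease cathepsin L, had 1020 and 934.5 in Nrp1-positive replicates 1 and 2, against 2535 and 1756 in Nrp1-negative replicates 1 and 2. With 4 arrays such nearness is a description of these arrays.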

How the data were processed

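RNA from 4 sorted samples was hybridised to 1-colour Affymetrix mouse arrays. The authors deposited linear probe set intensities from MAS5 (per the submitters' processing notes), with the software version and detection calls not given in the sources used here. Each array was multiplied to a trimmed mean of 500 (2% trimmed at each end) and analysed as log2(intensity + 18.3), so differences of dim probe sets are understated. The constant is 0.25 of the mean array median. Genes came from the platform annotation: 34945 probe sets had 1 gene, 932 several and 9160 none, and 64 controls were left out. Probe sets whose mean level reached percentile 50 were tested with limma 3.58.1 in R 4.3.3 (moderated by empirical Bayes with a trend on mean level, two-sided, Benjamini-Hochberg adjustment at 0.05), without a block and, as an alternative, with the replicate number as a block. The deviations of same-numbered arrays from their group means correlated at 0.694 over the probe sets tested, and the scaling target followed the number. The block leaves 1 residual degree of freedom per probe set beside 9.26 from the prior, so its standard errors rest mostly on other probe sets. The members and lists were chosen with earlier results of these data known. All member probe sets are named. Of each list, the genes called in either fit and up to 4 of highest mean level were chosen to be named. Of these, Klrg2, Sox13, Csf1r, Itgax and Cd68 are not described. Genes named beyond them are marked as such or given only as below background. A gene is represented by its tested probe set of highest mean. Ikzf2, of the regulatory T cell list, was the listed gene called with the block (adjusted p = 0.0443). The highest regulatory T cell markers besides it were Cd3d, Cd3g and Tnfrsf18. The limma script was tested on simulated data. Figures were drawn with matplotlib 3.10.9. Precision is limited by having 4 arrays.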

Additional observations from a re-analysis of the deposited data

How the results depend on the processing

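Limma without the block called 0 receptor probe sets in either direction, and so did limma with the replicate block alone. With quantile normalization and the replicate block, 1 receptor probe set was called higher and 1 lower, and with 1 probe set per gene and the replicate block 1 was called lower. Of all 22519 probe sets tested, 0 were called in either direction without the block, against 29 higher and 18 lower with the replicate block. Of 22519 again, 79 and 54 were called with quantile normalization and the block. A pseudocount of the mean array median with the block gave 20 and 10 of 22519. No filter with the block gave 16 and 8 of 45037, and 1 probe set per gene with the block 36 and 24 of 10204. The block without a mean-variance trend gave 0 and 0 of 22519. With an array left out, between 0 and 3 were called higher, the 3 without Nrp1-negative replicate 2. The Klrg1 difference of 0.74 kept its sign in 13 of 14 settings and was −0.22 when Nrp1-negative replicate 1 was moved into the Nrp1-positive group. The Klrb1f difference kept its sign in all 14 settings, from −1.17 to −0.48. These counts are no measure of robustness. With all arrays in their titled groups, the block, the filter, the trend and the choice of 1 probe set per gene cannot change a difference. It stayed at 0.74 for Klrg1 and −1.02 for Klrb1f in those settings. The Klrd1 difference of 0.15 was −0.87 with Nrp1-negative replicate 1 moved into the Nrp1-positive group, leaving that array out gave −0.58, and leaving out Nrp1-negative replicate 2 gave 0.88. The number of receptor probe sets above background, 3, was the same at the 90th percentile of the same genes and without each array in turn. These settings could not lower it, since they only ease the condition. It was 2 when the median of all probe sets on each array was the threshold, which Klrd1 missed on Nrp1-negative replicate 1. Apart from the construction of each setting, the cause of these changes was not tested.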
